A study of Mus musculus with 4 samples.

Results

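Hyaluronan is a long unbranched sugar polymer that fills the matrix around chondrocytes, the cells of cartilage. It is made at the plasma membrane by hyaluronan synthases, held at the cell surface by its receptor CD44, bound in the matrix by proteoglycans of the aggrecan and versican family, and taken apart by hyaluronidases. The gene group described here holds 8 of the 18298 genes that had reads, chosen by symbol for these roles. They are the synthases Has1, Has2 and Has3, the hyaluronidases Hyal1 and Hyal2, the receptor Cd44, the hyaluronan-binding protein Tnfaip6 (TSG-6) and the proteoglycan Vcan (versican). All 8 were listed in every sample, and all 8 had enough reads to be tested.

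The genes were read in primary rib chondrocytes of C57BL/6 background, dissected from E18.5 embryos and cultured to passage 1. The 2 Mut samples carried Dermo1-Cre and Senp6f/f, and the 2 WT samples carried the floxed Senp6 allele without Cre. Dermo1-Cre is expressed from the Twist2 locus in skeletal mesenchyme. Its recombinase deletes the floxed segment of Senp6, the gene of a protease that cuts SUMO chains from proteins. The effects of Cre, including its place at the Twist2 locus, and of Senp6 loss cannot be told apart, since only Mut samples carried Cre. Senp6 had an RPKM (reads scaled by gene length and by all reads on genes) of 10.8 and 18.0 in the WT samples and of 12.0 and 8.07 in the Mut samples, so the groups overlapped, and the gene total does not separate deleted from intact transcripts. Nothing in the labels says whether a sample was 1 embryo or a pool.

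The genes tested held 21007449 to 30983806 reads a sample. The median gap between replicates was 0.268 log2 units in WT and 0.147 in Mut. Mut replicate 2 had 11354 reads on Xist and 7 on 4 Y-linked genes, the reverse of the other 3 samples and the pattern of female cells, and its part in the results was not tested. Without that sample the log2 fold change was 0.99 for Cd44 and -0.39 for Vcan. That fit keeps 1 Mut sample, so it does not measure the spread within Mut and cannot show whether the differences hold. Markers fixed for the labelled cell type, 12 chondrocyte genes such as Col2a1, summed to an RPKM of 903 and 884 in WT and of 418 and 558 in Mut, and all 12 were lower in both Mut samples, and the part of this difference in the results on hyaluronan genes was not tested. The fibroblast and perichondrium markers summed to 12567 and 8756 in WT and to 8885 and 6482 in Mut, with 4 of 7 lower and 1, Thy1, higher in both Mut samples. Among all genes tested, 22.8% were lower and 25.4% higher in both Mut samples, with the read scaling described below. In these bulk samples, fewer cells of a type and less RNA per cell cannot be told apart.

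Of 14123 genes, the quasi-likelihood test of edgeR called 0 in Mut against WT (0% in either direction, adjusted p under 0.05), and limma on log2(RPKM + 1) called 0 as well. The unadjusted edgeR p was under 0.05 for 2199 genes (15.6%), split into 9.29% higher and 6.28% lower in Mut. DESeq2 called 434 genes higher and 263 lower (3.07% and 1.86%), and edgeR with the replicate number as a block called 84 and 33 (0.595% and 0.234%). Among the 8 hyaluronan genes, edgeR called 0, an unadjusted p under 0.05 was found for 2, DESeq2 called the same 2, Cd44 higher and Vcan lower in Mut, and edgeR with the block called 0. With reads scaled by TMM, the normalisation of the edgeR test, both Mut samples lay above both WT samples for Cd44 and Hyal1 and below them for Has2 and Vcan. Groups stood apart upwards for 25.4% of all genes tested and downwards for 22.8%, so 2 of 8 in each direction is the share of the background. The median log2 fold change was -0.04 over the 8 genes and 0.01 over all genes tested.

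**Figure D1:**
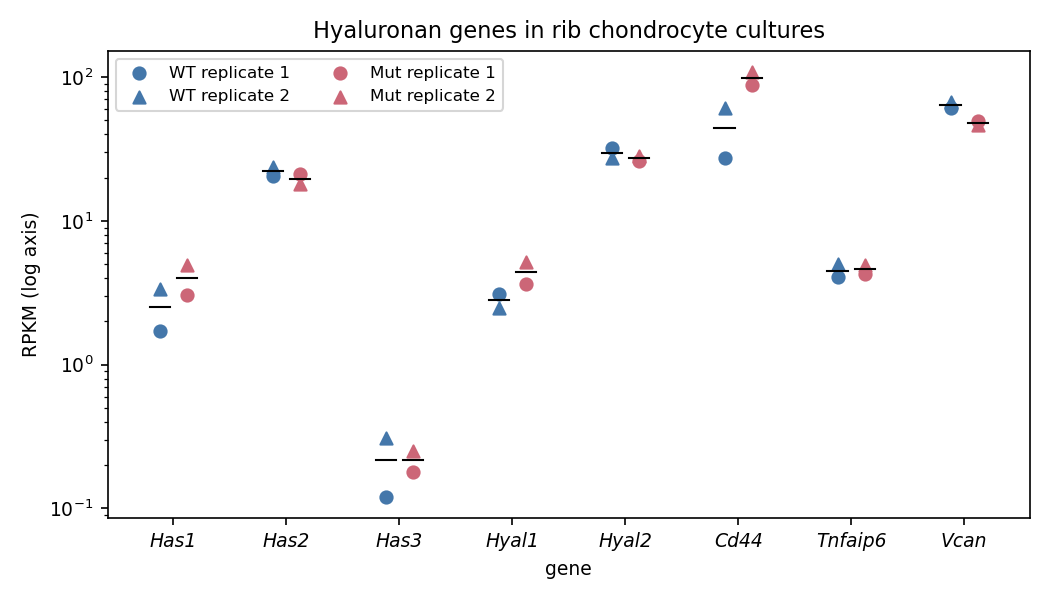
RPKM (log axis) of the 8 genes in each sample, with circles for replicate 1, triangles for replicate 2, blue for WT, red for Mut and a black line at each group mean. Cd44 is above both WT values in both Mut samples (88.3 and 109 against 27.5 and 60.9), Vcan is below (49.7 and 46.3 against 61.4 and 66.7), and Has3 is under 0.32 everywhere.

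The upstream sequences of 4 of the genes are given to show the DNA beside the values, namely of the 3 genes whose groups stood apart in both scalings, and of Tnfaip6, which encodes a protein induced by inflammatory signals and whose groups overlapped. Each holds the 250 bases before the annotated start, 5′ to 3′ on the strand of the gene, from RefSeq on GRCm38.p6, where 6 of the 8 genes had an entry. Capitals mark matches on either strand to AP-1 (TGANTCA), the GC box (GGGCGG), CRE (TGACGTCA), the TATA box (TATAAA), the CCAAT box (its own letters) or the NF-kB consensus.
Cd44, chr2:102901666-102901915, minus strand: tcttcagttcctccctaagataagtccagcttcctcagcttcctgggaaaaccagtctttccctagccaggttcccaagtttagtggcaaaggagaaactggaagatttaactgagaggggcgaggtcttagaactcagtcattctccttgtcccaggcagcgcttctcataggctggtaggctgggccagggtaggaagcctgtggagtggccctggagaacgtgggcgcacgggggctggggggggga
Hyal1, chr9:107576700-107576949, plus strand: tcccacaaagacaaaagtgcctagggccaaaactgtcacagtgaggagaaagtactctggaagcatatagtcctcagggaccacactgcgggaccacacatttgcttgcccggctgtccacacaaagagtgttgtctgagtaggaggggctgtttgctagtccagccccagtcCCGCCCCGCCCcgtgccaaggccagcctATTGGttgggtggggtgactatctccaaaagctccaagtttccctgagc
Vcan, chr13:89742513-89742762, minus strand: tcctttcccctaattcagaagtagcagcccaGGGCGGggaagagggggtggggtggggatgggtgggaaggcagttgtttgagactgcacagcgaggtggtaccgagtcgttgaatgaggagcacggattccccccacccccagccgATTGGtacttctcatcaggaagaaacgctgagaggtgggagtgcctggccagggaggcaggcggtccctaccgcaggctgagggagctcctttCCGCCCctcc
Tnfaip6, chr2:52037863-52038112, plus strand: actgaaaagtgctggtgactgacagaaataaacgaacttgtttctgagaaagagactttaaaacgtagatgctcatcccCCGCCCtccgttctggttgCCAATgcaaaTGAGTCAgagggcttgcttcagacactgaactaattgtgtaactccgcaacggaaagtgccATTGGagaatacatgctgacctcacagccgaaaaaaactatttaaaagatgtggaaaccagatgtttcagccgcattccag
The window of Cd44 held no match to the 6 motifs, while those of Hyal1 and Vcan each held 2 GC boxes and 1 CCAAT box (the 2 GC boxes of Hyal1 share a base). Tnfaip6 held the AP-1 match, 142 to 136 bases before the RefSeq start, and 6.75% of the 32851 promoter windows in the table held one. The RefSeq start differs from the GENCODE gene start used for the positions given here, so the last 104 bases of the Tnfaip6 window and the last 23 of the Hyal1 window lie inside the GENCODE gene. GC boxes were found in 32.7% and CCAAT boxes in 33.8% of the promoter windows, and CRE matches in 1.55%. Among the windows not printed, that of Has1 held a CRE match and a CCAAT box, and that of Hyal2 a GC box. All 250 bases of the Hyal2 window and 17 of the Has1 window lie inside the GENCODE gene. These are matches of letters, and no binding was measured.

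Cd44, the cell-surface receptor that tethers hyaluronan to chondrocytes, showed the largest difference of the 8 genes. On GRCm38 it spans bases 102811141 to 102901665 of chromosome 2, and up to 19 exons of its coding transcripts are annotated. Its RPKM was 27.5 and 60.9 in WT replicates 1 and 2 and 88.3 and 109 in Mut replicates 1 and 2, from 3265, 8995, 15480 and 17366 reads. Both Mut samples were above both WT samples, and the lower Mut value was 1.45 times the higher WT value. The mean RPKM was 98.5 ± 14.4 (SD, n = 2) in Mut and 44.2 ± 23.6 (SD, n = 2) in WT. The fitted fold was 2.18 (95% interval 1.26 to 3.78), a log2 fold change of 1.12 with a standard error of 0.33 and an edgeR adjusted p of 0.185. DESeq2 gave a log2 fold change of 1.11 and an adjusted p of 0.00653, so the call depended on the tool. The WT samples themselves were 2.13-fold apart in scaled reads, a gap reached by 6.12% of genes. The log2 fold change was 0.67 without WT replicate 1 and 1.74 without WT replicate 2, so its size depended on which WT sample was used, while the sign held. The counts are per gene and do not separate the splice forms of Cd44.

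CD44 is also carried by other cell types, whose markers were read beside it. The 9 macrophage and leukocyte markers summed to an RPKM of 21.4 and 19.9 in WT and of 11.1 and 16.4 in Mut. By RPKM, 6 of the 9 were lower in both Mut samples, Cd14 was higher and the other 2 overlapped. The part of these markers in the Cd44 difference was not tested. Ptprc, the common leukocyte antigen, had 3 to 6 reads in each sample. The 10 striated muscle markers summed to 97.1 and 34.2 in WT and to 174 and 192 in Mut, with 6 of the 9 that had reads higher in both Mut samples, while Myf5 had no read in the files, and their part in the Cd44 difference was not tested. In TMM-scaled reads, 7 of the 8 tested macrophage and leukocyte markers were lower and 1 was higher in both Mut samples. On that scale, 6 of the 9 tested muscle markers were higher and 0 lower. Beside these counts, 25.4% of all genes tested were higher and 22.8% lower in both Mut samples, in TMM-scaled reads. Endothelial markers summed to at most 1.52 and erythroid markers to at most 0.531 in any sample. The osteoblast markers summed to 82.3 and 24.3 in WT and to 7.96 and 19.0 in Mut.

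CD44 is linked to the actin cytoskeleton by ezrin, radixin and moesin, and the values of that family differed from member to member. Ezr (ezrin) had an RPKM of 12.0 and 17.0 in WT and of 27.3 and 33.2 in Mut, with both Mut samples above both WT samples. Its fitted fold was 2.02, a log2 fold change of 1.02 with a standard error of 0.19 (edgeR adjusted p = 0.0910, DESeq2 adjusted p = 0.000198, 0.0516 in edgeR with the replicate number as a block). Msn (moesin), the most abundant of these linkers, had 140 and 219 in WT and 273 and 253 in Mut (log2 fold change 0.52 with a standard error of 0.21, edgeR adjusted p = 0.296). Rdx (radixin), also picked after its values were seen, lay between 34.9 and 40.2 in all 4 samples, and its log2 fold change was -0.07. The list also held Nf2, which encodes the related protein merlin, and the membrane proteases Mmp14, Adam10 and Adam17, which cut CD44 from the surface. Mmp14 was the highest of them, with an RPKM of 377 to 434 and a log2 fold change of -0.04 (95% interval -0.41 to 0.33). Of the 7 listed genes, all were tested, edgeR called 0, DESeq2 called Ezr, and the median log2 fold change was -0.03. Over all genes tested, DESeq2 called 3.07% higher in Mut.

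**Figure D2:**
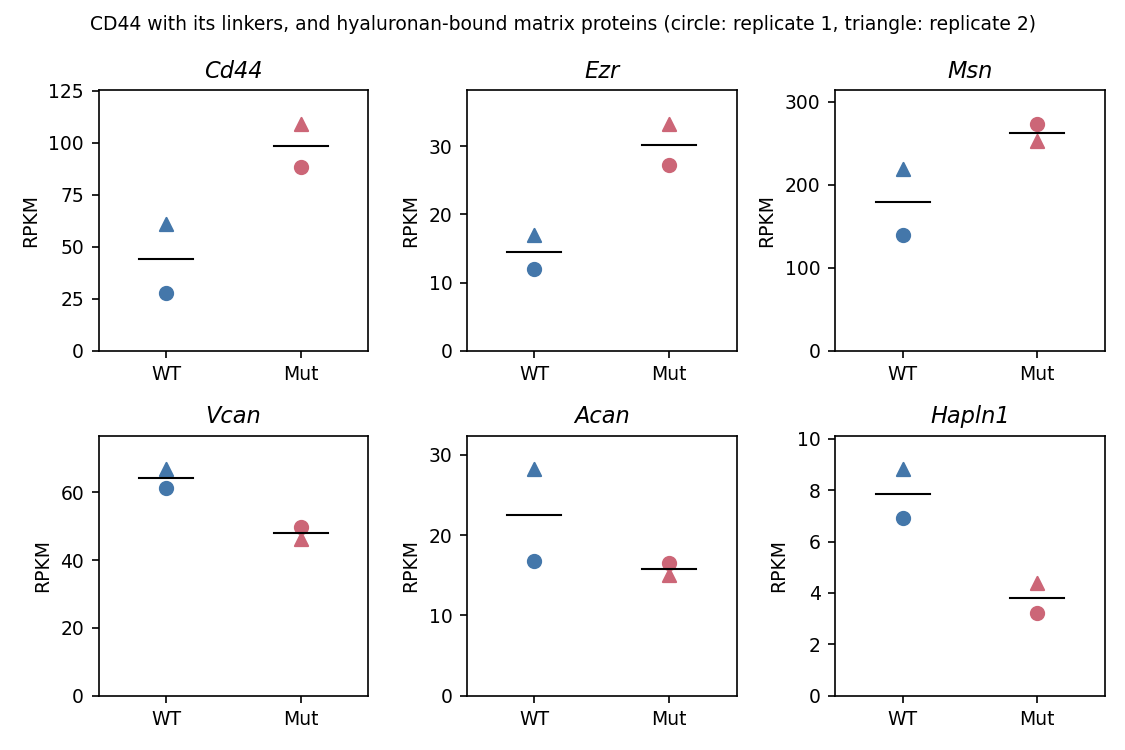
RPKM (linear axes from 0) of Cd44, its linkers Ezr and Msn, and the matrix genes Vcan, Acan and Hapln1 by group, with circles for replicate 1, triangles for replicate 2 and lines at the means. Ezr has the same order as Cd44 (12.0 and 17.0 in WT, 27.3 and 33.2 in Mut), while Hapln1 is lower in both Mut samples (3.24 and 4.38 against 6.93 and 8.81). Rdx, also of that linker family, is not shown and lay between 34.9 and 40.2 in all samples.

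Vcan encodes versican, the large proteoglycan of precartilage and fibroblast matrix that binds hyaluronan through its amino-terminal domain. It lies on chromosome 13 from 89655312 to 89742509. Its RPKM was 61.4 and 66.7 in WT and 49.7 and 46.3 in Mut, from 16040, 21683, 19146 and 16273 reads. Both Mut samples were below both WT samples, and replicates were close, 1.04-fold apart in WT and 1.10-fold in Mut in scaled reads. The fitted fold was 0.729 (95% interval 0.590 to 0.900), a log2 fold change of -0.46 with a standard error of 0.13 and an edgeR adjusted p of 0.167. DESeq2 gave -0.47 and an adjusted p of 0.0361. With each sample left out in turn the log2 fold change stayed between -0.53 and -0.39. Reads covered 93.9% to 94.95% of the gene length of 12432 bases, and the splice forms of versican, which differ in their glycosaminoglycan-bearing exons, were not separated.

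Per length, Vcan was the most abundant of the 8 transcripts in WT and Cd44 in Mut. The ratio of Cd44 to Vcan RPKM was 0.448 and 0.912 in WT and 1.78 and 2.35 in Mut. Cd44 made up 18.3% and 32.1% of the summed RPKM of the 8 genes in WT and 45.0% and 50.1% in Mut, whereas Vcan made up 40.8% and 35.2% in WT and 25.3% and 21.4% in Mut. Below them in both groups came Hyal2, Has2 and Tnfaip6, then Hyal1, Has1 and Has3. In WT the values of Cd44 and Hyal2 overlapped, as did those of Hyal1 and Has1. In Mut the neighbours that overlapped were Tnfaip6 with Hyal1, and Hyal1 with Has1. For all other neighbours in the order, both values of 1 gene lay above both values of the next, whatever the size of the gap. In WT the lower Vcan value, 61.4, was just above the higher Cd44 value, 60.9.

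Other matrix proteins that bind hyaluronan were compared with Vcan. Acan (aggrecan), the main proteoglycan of cartilage, and Hapln1, the link protein that locks it onto hyaluronan, were singled out after their values were seen, and both are also among the chondrocyte markers. Acan had an RPKM of 16.8 and 28.2 in WT and of 16.5 and 15.1 in Mut, with both Mut samples below WT but only 0.984 times as high at the nearest values (log2 fold change -0.54 with a standard error of 0.23, edgeR adjusted p = 0.326). The ratio of Vcan to Acan was 3.65 and 2.37 in WT and 3.00 and 3.07 in Mut, and thus overlapped. Hapln1 was 6.93 and 8.81 in WT and 3.24 and 4.38 in Mut (log2 fold change -1.09 with a standard error of 0.19, edgeR adjusted p = 0.0885). Of 23 listed genes for proteins that bind hyaluronan or act with such proteins, 17 were tested. Of these, 5 had a positive and 12 a negative log2 fold change, with a median of -0.13. Over all 14123 genes tested, 7262 were positive and 6861 negative. In this list edgeR called 0, while DESeq2 called Hapln1 lower and Itih4 higher. Over all genes tested, DESeq2 called 1.86% lower and 3.07% higher in Mut.

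The most abundant genes of that list were Ptx3 (pentraxin 3), whose protein stabilises hyaluronan matrix together with TSG-6, and C1qbp. Ptx3 had an RPKM of 75.1 and 57.1 in WT and of 41.7 and 75.5 in Mut, with overlapping groups. C1qbp lay between 42.9 and 55.5 in all samples. The largest differences were in low genes. Itih4, a member of the inter-alpha-trypsin inhibitor heavy chain family, had 3 and 6 reads in WT and 39 and 45 in Mut (log2 fold change 2.84 with a standard error of 0.49, edgeR adjusted p = 0.0873). Stab1, a scavenger receptor of macrophages that takes up hyaluronan fragments, had 87 and 111 reads in WT and 62 and 57 in Mut (log2 fold change -1.10, edgeR adjusted p = 0.131).

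Tnfaip6 encodes TSG-6, the protein that transfers inter-alpha-inhibitor heavy chains onto hyaluronan. It lies on chromosome 2 from 52038009 to 52056686. Its RPKM was 4.04 and 4.99 in WT and 4.25 and 4.95 in Mut, from 136 to 224 reads. The groups overlapped almost fully, and the log2 fold change was -0.02 (95% interval -0.54 to 0.50, edgeR adjusted p = 0.979), which leaves room for a fold between 0.689 and 1.42. TSG-6 uses heavy chains such as that of Itih2, which was outside the naming rule and was picked after its values were seen. Itih2 had 237 and 512 reads in WT and 830 in each Mut sample (log2 fold change 0.82, edgeR adjusted p = 0.188).

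Has2, the main hyaluronan synthase of skeletal mesenchyme, lies on chromosome 15 from 56665627 to 56694539. Its RPKM was 20.6 and 23.7 in WT and 21.3 and 18.1 in Mut, from 1841 to 2812 reads. These values overlapped, although after TMM scaling Mut replicate 1, at 90.6 CPM, lay just under WT replicate 1 at 90.7. The log2 fold change was -0.21 (standard error 0.15, 95% interval -0.56 to 0.14, edgeR adjusted p = 0.567), so a fold below 0.679 or above 1.11 lies outside the interval. Has2 took 91.8% and 86.7% of the summed RPKM of the synthases in WT and 86.8% and 77.8% in Mut. That sum was 22.4 and 27.4 in WT and 24.5 and 23.3 in Mut. The antisense gene Has2os overlaps Has2 and had only 1 to 12 reads in a sample.

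Has1, on chromosome 17 from 17843323 to 17855205, makes hyaluronan less efficiently. Its RPKM was 1.72 and 3.34 in WT and 3.05 and 4.92 in Mut, with overlapping groups, from 76 to 293 reads. The log2 fold change was 0.61 (standard error 0.37, edgeR adjusted p = 0.494), and it ranged from 0.23 to 1.11 with a sample left out. The lowest of these values came without WT replicate 1 and the highest without WT replicate 2. Has3, on chromosome 8 from 106870242 to 106884566, had 15 and 48 reads in WT and 33 and 42 in Mut, an RPKM of at most 0.311, and its span overlaps that of Chtf8, which had 3090 to 5034 reads. Reads covered 24.95% of the Has3 length in WT replicate 1 and 50.3% to 54.2% in the other samples. Its log2 fold change of -0.06 had a 95% interval from -1.25 to 1.14, and the WT samples were 2.47-fold apart in scaled reads. No difference in Has3 could be told from the spread between these samples.

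**Figure D3:**
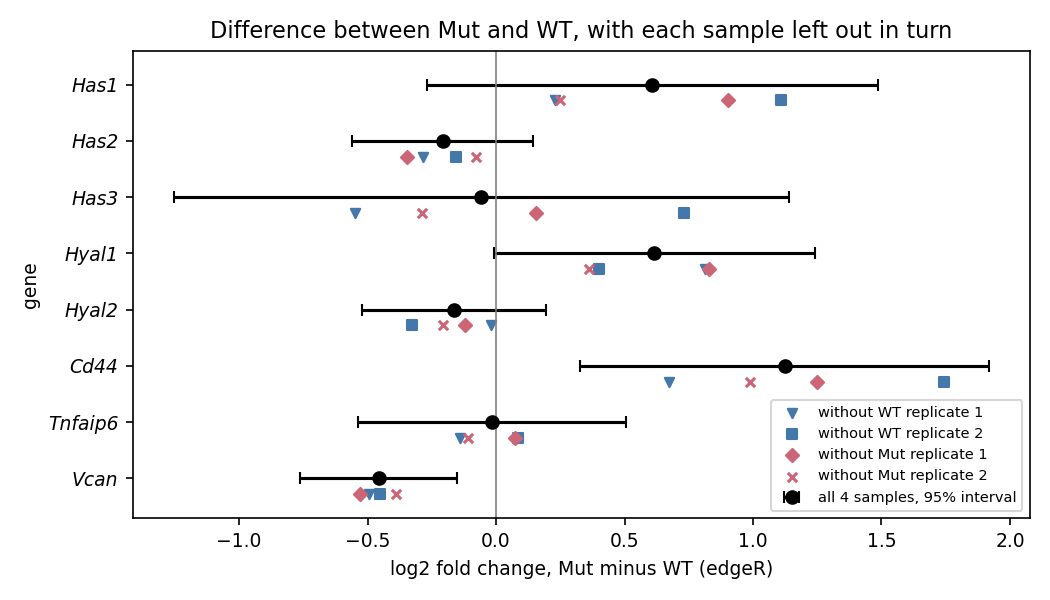
Log2 fold change, Mut minus WT, from edgeR for the 8 genes, with black circles and bars for all 4 samples and the 95% interval, and coloured symbols for each fit without 1 sample. The intervals of Cd44 and Vcan exclude 0, those of the other 6 genes include it, and the symbols of Cd44 reach from 0.67 to 1.74 while those of Vcan stay between -0.53 and -0.39.

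The sugars for hyaluronan come as UDP-glucuronic acid and UDP-N-acetylglucosamine, whose supply genes were listed. Of these 8 genes, all were tested, and edgeR and DESeq2 called 0. An unadjusted edgeR p under 0.05 was found for 1 higher and 2 lower, against 9.29% and 6.28% of all genes tested. The median log2 fold change of the 8 was 0.03. Ugdh, which makes UDP-glucuronic acid, was the most abundant, with an RPKM of 69.7 and 94.6 in WT and 103 and 121 in Mut (log2 fold change 0.41 with a standard error of 0.17, edgeR adjusted p = 0.314). Both Mut samples were above both WT samples. Nagk, the kinase that salvages N-acetylglucosamine, had 42.4 and 35.6 in WT and 28.9 and 31.0 in Mut (log2 fold change -0.43, edgeR adjusted p = 0.250). Gfpt1, which opens the hexosamine route and was named after its values were seen, lay between 20.7 and 23.5.

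Hyal2, a hyaluronidase anchored at the cell surface that cuts long chains, and Hyal1, the lysosomal enzyme that cuts the fragments further, are neighbours on chromosome 9, from 107567945 to 107572779 and from 107576927 to 107581710. Hyal2 had an RPKM of 31.9 and 27.2 in WT and of 26.1 and 28.4 in Mut, and its groups overlapped (log2 fold change -0.16, 95% interval -0.52 to 0.19, edgeR adjusted p = 0.662). Hyal1 had 3.12 and 2.48 in WT and 3.66 and 5.20 in Mut, from 143, 141, 247 and 320 reads. Both Mut samples were above both WT samples, the nearest by 1.17-fold, and the log2 fold change was 0.62 (standard error 0.26, 95% interval -0.01 to 1.24, edgeR adjusted p = 0.330). The fold of Hyal2 over Hyal1 was 10.2 and 11.0 in WT and 7.13 and 5.47 in Mut. The span of Hyal1 overlaps those of Naa80, with 588 to 766 reads, and Hyal3, with 19 to 47 reads, on the same strand, so how reads there were divided between the genes is uncertain.

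The wider list of hyaluronan breakdown held 10 genes, of which 6 were in the files and tested, and Hyal4, Hyal5, Hyal6 and Spam1 had no read in the files. The edgeR test and DESeq2 called 0 of the 6, and the median log2 fold change was -0.18. Hexa, a subunit of lysosomal hexosaminidase, had an RPKM of 89.9 and 73.5 in WT and of 62.2 and 61.3 in Mut (log2 fold change -0.45 with a standard error of 0.15, edgeR adjusted p = 0.233). Gusb, the lysosomal glucuronidase, had 41.0 and 42.4 in WT and 37.9 and 38.1 in Mut, so both Mut samples were lower by little (log2 fold change -0.18, edgeR adjusted p = 0.549). Hyal3 stayed under an RPKM of 0.85 (log2 fold change 0.46, edgeR adjusted p = 0.632). Cemip, which drives hyaluronan breakdown in fibroblasts, was named after its values were seen, with 8.34 and 7.27 in WT and 9.36 and 11.9 in Mut (log2 fold change 0.40, edgeR adjusted p = 0.318).

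Versican is cut by secreted proteases of the ADAMTS family, and 6 of them were listed and tested. Of these, 5 had a negative log2 fold change and 1 a positive, against 6861 negative among all 14123 genes tested. The median of the 6 was -0.46, and edgeR and DESeq2 called 0 of them. Adamts1, the most abundant, had an RPKM of 46.0 and 37.0 in WT and of 41.8 and 47.4 in Mut, with overlapping groups. Adamts5 had 25.3 and 25.5 in WT and 21.9 and 19.5 in Mut (log2 fold change -0.33 with a standard error of 0.13, edgeR adjusted p = 0.290). Adamts9 had 10.8 and 7.91 in WT and 6.93 and 5.44 in Mut (log2 fold change -0.64, edgeR adjusted p = 0.229). Adamts15 had 4.59 and 2.07 in WT and 2.31 and 1.46 in Mut, and here WT replicate 2 lay within the Mut values (log2 fold change -0.87, edgeR adjusted p = 0.385). Its log2 fold change was -0.15 without WT replicate 1 and -1.38 without WT replicate 2, and -1.26 and -0.56 without Mut replicates 1 and 2.

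**Figure D4:**
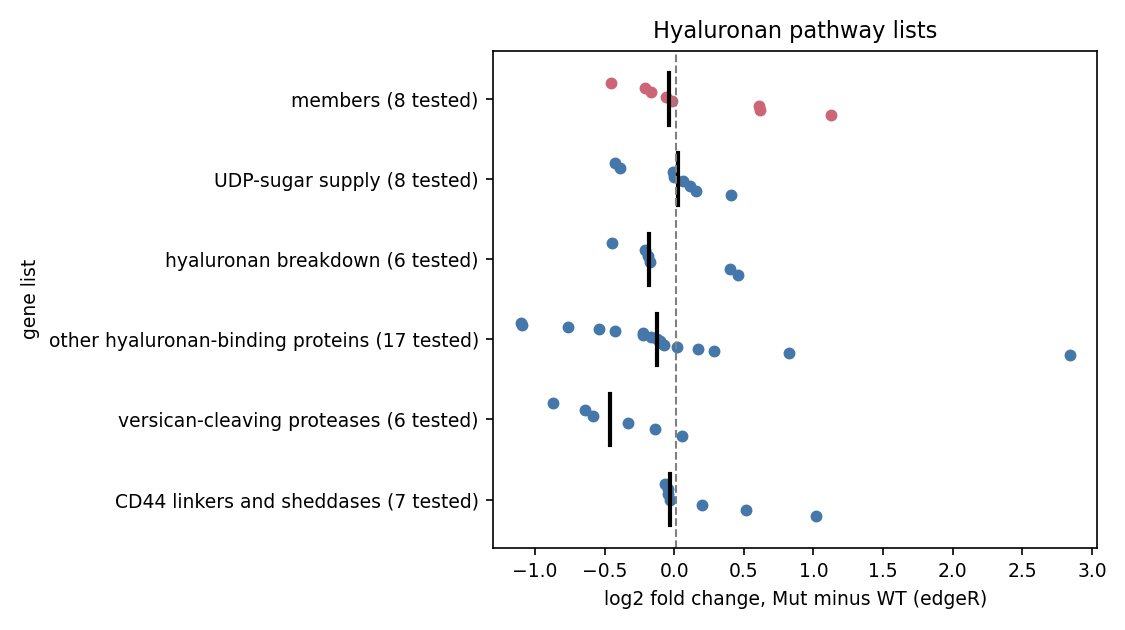
Log2 fold change, Mut minus WT, from edgeR for each tested gene of the 8 hyaluronan genes and of 5 related lists, with a black bar at each list's median and a dashed line at the median of all genes tested (0.01). The proteases that cut versican have the lowest median (-0.46), and single genes reach 2.84 (Itih4) upwards and -1.10 (Stab1) downwards.

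The genes most like a member in their pattern were found by the Euclidean distance of log2 CPM, centred on each gene's mean over the 4 samples, among all genes tested. For Cd44 they were Rasl10b (distance 0.138), Hbegf (0.168) and Enkur (0.178), and 7 genes lay within 0.2. Hbegf, which encodes an EGF receptor ligand, had an RPKM of 1.73 and 3.29 in WT and of 5.38 and 6.42 in Mut. For Vcan they were F420014N23Rik (0.0608), Acly (0.0618) and Oxct1 (0.0648), with 248 genes within 0.2. For Has2 they were Zfp82 (0.0109), Mdc1 (0.0350) and Gatc (0.0420), with 762 genes within 0.2, so the pattern of Has2 was shared by many genes that vary little.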

How the data were processed

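RNA from 4 samples, 2 WT and 2 Mut, was enriched for poly(A) and sequenced by a service. The authors deposited for each gene the raw read count, the RPKM, which is the count scaled by the listed gene length and by all reads counted on genes, and the coverage, the percent of the gene length with reads. The submitters' processing notes name mm9 and SAMtools, and the aligner and the counter are not given in the sources used here. The protocol does not mark strand. Genes absent from a file were given a count of 0. Positions come from GENCODE M21 on GRCm38 and promoters from RefSeq.

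Counts were tested with the edgeR 4.0.16 quasi-likelihood test (R 4.3.3, TMM, robust) over the 14123 genes in which 2 or more samples had 10 or more counts. Benjamini-Hochberg adjustment covered all of them. Standard errors and 95% intervals were derived from the F statistic, and TMM factors lay between 0.966 and 1.03. An exact permutation test of 2 against 2 samples cannot go below 0.333 and was not used. Alternatives were DESeq2 1.42.0, upper-quartile factors, 2 other filters, limma 3.58.1 on log2(RPKM + 1) and log2(RPKM + 0.1), the replicate block, and each sample left out. The scripts were tested on simulated data. The chi-square over its degrees of freedom was 48.6 between the WT and 23.7 between the Mut replicates, far above sampling noise. Nothing in the labels says that replicates are separate animals, so p values measure the spread between these samples.

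The genes and lists were chosen with earlier results of these data known. Named were the 8 genes, Senp6 and Twist2, any list gene called by edgeR, in each related list the 2 with the highest mean RPKM and the 2 with the largest absolute log2 fold change, and the 3 nearest patterns of Has2, Cd44 and Vcan. Twist2 had an RPKM of 5.15 and 15.1 in WT and of 8.19 and 9.07 in Mut, so the groups overlapped. Its log2 fold change was -0.27 with a standard error of 0.44 (edgeR adjusted p = 0.822).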

Additional observations from a re-analysis of the deposited data

How the results depend on the processing

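Among all genes, edgeR called 0 higher and 0 lower, DESeq2 434 and 263, edgeR without a filter 225 and 61, and edgeR with the replicate block 84 and 33. Leaving out a sample gave 96 to 1331 higher and 47 to 1492 lower, with the most without WT replicate 2. Those fits keep 1 sample in a group, which is assumed to vary like the other group, and the cause of these swings was not tested. The labels do not state that replicate numbers pair the samples. Across genes, the correlation of replicate differences between genotypes was -0.0422. It rests on a single difference in each genotype and cannot decide whether samples were paired. With the replicate block, Cd44 had a log2 fold change of 1.22 (edgeR adjusted p = 0.0712) and Vcan one of -0.46 (0.238), so it changed the call of none of the 8 genes. DESeq2 placed Cd44 (1.11, adjusted p = 0.00653) and Vcan (-0.47, adjusted p = 0.0361) past the threshold. The log2 fold change of Has3 turned positive with limma on log2(RPKM + 1) (0.0039) and log2(RPKM + 0.1) (0.060) and with the replicate block (0.049), and that of Tnfaip6 with limma (0.024 and 0.030), all near 0. With a sample left out, the log2 fold changes ranged from 0.23 to 1.11 for Has1, -0.55 to 0.73 for Has3, 0.67 to 1.74 for Cd44, -0.14 to 0.087 for Tnfaip6 and -0.53 to -0.39 for Vcan. Without WT replicate 1 the log2 fold change was 0.67 for Cd44, 0.23 for Has1 and -0.49 for Vcan. Without WT replicate 2 the values were 1.74, 1.11 and -0.45. Whether edgeR called these genes then depended on the sample left out, and no such call is read as a result. The medians ranged from -0.094 to 0.24 for the 8 genes, -0.16 to 0.28 for sugar supply, -0.27 to -0.048 for breakdown, -0.31 to -0.063 for binding proteins, -0.76 to -0.20 for versican proteases and -0.019 to 0.085 for CD44 linkers and sheddases. Among list genes, the log2 fold change with a sample left out ranged from -1.30 to -0.90 for Hapln1 and from 2.59 to 3.18 for Itih4. It ranged from 0.81 to 1.23 for Ezr, 0.25 to 0.81 for Msn and -0.85 to -0.18 for Acan. The range was 0.22 to 0.59 for Ugdh, -0.60 to -0.27 for Nagk and -0.64 to -0.27 for Hexa. For Stab1 it was -1.14 to -1.09, for Itih2 0.50 to 1.22, for Adamts9 -0.90 to -0.37 and for Adamts15 -1.38 to -0.15. Has3 had the fewest reads of the 8 genes, 15 to 48 a sample.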
